A study of Mus musculus with 6 samples.

Results

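Hyaluronan is a long, unbranched sugar polymer of the extracellular matrix, and 8 genes whose products make, bind or break it down were followed here through the first week of fracture repair. The genes were taken by symbol (Has1, Has2, Has3, Tnfaip6, Cd44, Lyve1, Hyal2 and Cemip), and all 8 were found among the 30406 genes that the 6 count matrices share. The study profiled single nuclei of mouse tibial periosteum, the tissue that lines bone and supplies cells for its repair, without injury and after an open tibial fracture that was not stabilized. The mice were wild type (C57BL/6ScNj in the methods), 12 weeks old, with males and females mixed. There were 2 uninjured libraries, 2 from day 3, 1 from day 5 and 1 from day 7 after fracture. Each uninjured library came from the tibias of 4 mice, and each injured library pooled 4 to 9 mice and held the hematoma scraped off with the periosteum. Libraries, not nuclei, were the replicates, so that p-values measure only the spread between these pools.

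Hyaluronan is extruded through the plasma membrane by the synthases HAS1, HAS2 and HAS3, which build it from UDP-sugars. TSG-6, the product of Tnfaip6, transfers heavy chains of inter-alpha-inhibitor onto the polymer, and pentraxin 3 and the proteoglycan versican are further partners in such matrices. CD44 is its main receptor on leukocytes and mesenchymal cells, LYVE1 is a receptor of lymphatic endothelium and some resident macrophages, and HYAL2 and CEMIP take part in its breakdown.

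The deposited matrices held 13551 barcodes and 55293921 UMIs (unique molecular identifiers, each standing for 1 captured transcript), between 1499281 and 29796296 UMIs per library. After limits on genes, mitochondrial and ribosomal UMIs and the removal of muscle nuclei, 6314 nuclei remained, from 372 to 2097 per library. Clusters were named "X-like" from marker genes, with the 8 genes left out of the clustering, and levels are given as CPM, the UMIs of a gene scaled to a common total over the nuclei of a population in 1 library. The names did not hold equally well in each library. In the SSPC-like cluster (skeletal stem and progenitor cells), the summed level of Pi16, Ly6a, Cd34 and Dpp4 was 5354 and 3270 CPM without injury but between 92.4 and 468 CPM after fracture. The 6 neutrophil markers were at 0 in the neutrophil-like nuclei of both uninjured libraries and reached 4627 CPM in day 3 replicate 2 against at most 127 CPM in the others. Uninjured replicate 1 held 10 macrophage-like nuclei. The 6 chondrocyte markers summed to 666 and 185 CPM in chondrocyte-like nuclei without injury, against 19676 and 17328 CPM at days 5 and 7. In the tendon-like nuclei of uninjured replicate 1 the 5 tendon markers held 3 UMIs (45.9 CPM). The larger fibroblast-like cluster (641 nuclei) was named on a near tie, with a marker score of 2.735 for fibroblasts and 2.69 for IIFC (injury-induced fibrogenic cells), and at resolution 0.8 no fibroblast-like cluster was left, so that values of these populations rest on that boundary. Pairs of libraries shared 0 to 7 barcodes.

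Mean levels of Has2 and Tnfaip6 were highest in IIFC-like nuclei, that of Has1 in SSPC-like nuclei, that of Cemip in osteoblast-like nuclei, that of Cd44 in osteoclast-like nuclei, that of Lyve1 in lymphatic endothelial-like nuclei and that of Hyal2 in blood endothelial-like nuclei. Has3 was at most 4.74 CPM on average, in lymphatic endothelial-like nuclei. Without day 3 replicate 2 the highest means of Has2 and Tnfaip6 were those of chondrocyte-like nuclei (164 and 115 CPM). Populations were cut from the same nuclei, so these orders are a description without a test. For Has2, the mean over libraries with at least 20 nuclei was 262 CPM in IIFC-like nuclei (SD 282, 5 libraries), 181 CPM in fibroblast-like nuclei (SD 136, 6 libraries), 164 CPM in chondrocyte-like nuclei (SD 21.1, 2 libraries) and 127 CPM in SSPC-like nuclei (SD 72.6, 6 libraries). These neighbours lay closer together than the spread of their libraries. For Tnfaip6 the first 4 means lay between 105 and 132 CPM, with SDs from 54.1 to 134 CPM, and did not separate either.

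**Figure D1:**
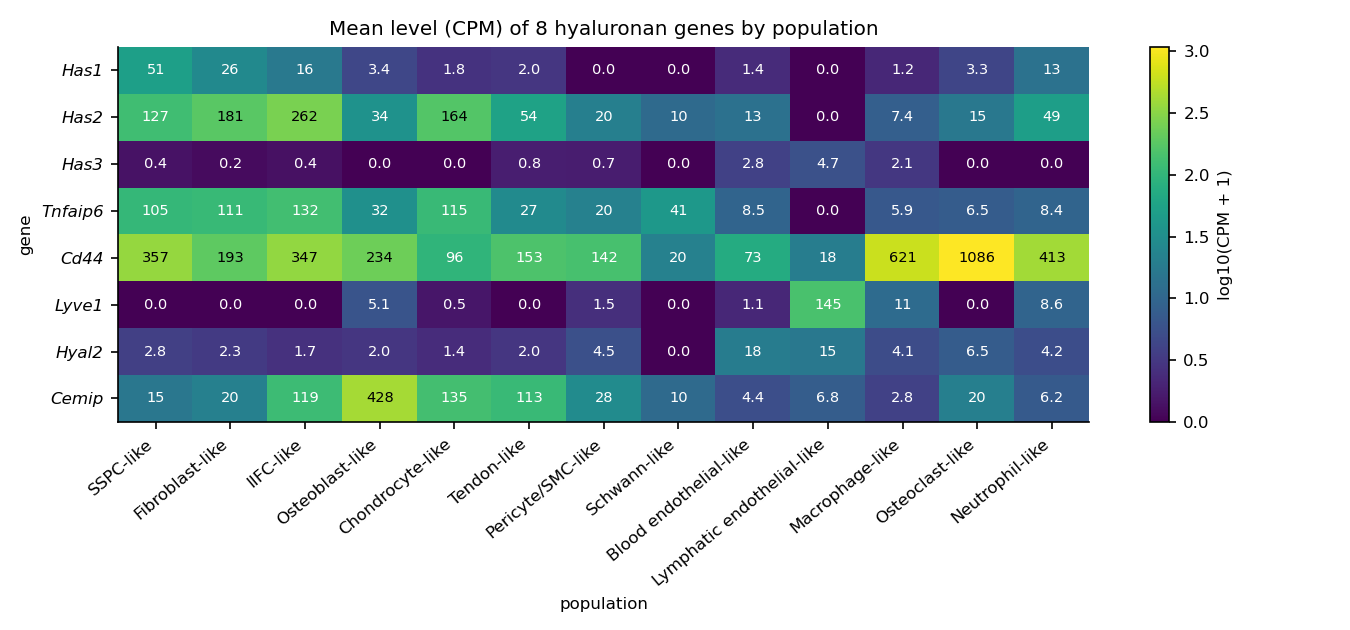
Mean level of the 8 genes (rows) in each population (columns), with the number in each cell in CPM and colour on a log10(CPM + 1) scale; means are over libraries with at least 20 nuclei of the population. Cd44 reaches 1086 CPM in osteoclast-like and 621 CPM in macrophage-like nuclei, Cemip 428 CPM in osteoblast-like nuclei and Has2 262 CPM in IIFC-like nuclei.

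To ask which of these genes had changed in the bone-forming and fibrogenic lineage by day 3, UMIs were summed per library over the stromal nuclei (osteoblast-like, chondrocyte-like, fibroblast-like, IIFC-like and SSPC-like), and the 2 day 3 libraries were compared with the 2 uninjured ones. Has2 and Tnfaip6 rose. Of 9589 genes tested by edgeR's quasi-likelihood test at an adjusted p under 0.05, 3.62% were called higher at day 3 and 5.25% lower. Of the 8 genes, 5 passed the filter on low counts, of which 2 were called higher and 0 lower. The median log2 fold change of these 5 was 1.85, against 0.06 over all genes tested. Has3, Hyal2 and Lyve1 had too few stromal UMIs to be tested. In such sums, more nuclei of a type and more RNA per nucleus cannot be told apart.

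Has2 (chr15:56665627-56694539, minus strand, GRCm38) encodes the synthase mainly used by mesenchymal cells. Its stromal level was 65.7 and 92.9 CPM in the uninjured libraries, 215 and 402 CPM at day 3, 174 CPM at day 5 and 113 CPM at day 7. Both day 3 libraries lay above both uninjured ones, and the later libraries fell between these groups. The log2 fold change at day 3 was 1.88 (SE 0.37, adjusted p = 0.00951 by edgeR, higher in 2 of 2 libraries). In fibroblast-like nuclei alone, a comparison chosen after seeing the data, it was 1.97 (SE 0.43, adjusted p = 0.0142 by edgeR). In SSPC-like nuclei alone it was 0.52 (SE 0.53, adjusted p = 0.660 by edgeR), and whether these populations differed in their change was not tested.

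Tnfaip6 (chr2:52038009-52056686, plus strand) encodes the secreted protein TSG-6. Its stromal level was 59.7 and 33.6 CPM in the uninjured libraries, 145 and 153 CPM at day 3, 192 CPM at day 5 and 54.2 CPM at day 7. The day 3 libraries stood above both uninjured libraries, whereas the day 7 library lay between the uninjured ones. The log2 fold change at day 3 was 1.85 (SE 0.43, adjusted p = 0.0207 by edgeR). It was no longer called without uninjured replicate 2 (1.304, adjusted p = 0.149 by edgeR) or in SSPC-like nuclei alone (0.57, adjusted p = 0.748 by edgeR), and in fibroblast-like nuclei alone it was 2.69 (SE 0.55, adjusted p = 0.00988 by edgeR).

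Cd44 and Has1 were higher in both day 3 libraries without passing the threshold. The stromal level of Cd44 (chr2:102811141-102901665, minus strand) was 83.6 and 186 CPM in the uninjured libraries, 442 and 297 CPM at day 3, 295 CPM at day 5 and 168 CPM at day 7. Its log2 difference at day 3 was 1.41 (SE 0.44, adjusted p = 0.0713 by edgeR). The stromal level of Has1 (chr17:17843323-17855205, minus strand), a synthase usually present at low levels, was 5.97 and 16.4 CPM in the uninjured libraries, 89.5 and 29.9 CPM at day 3, 10.9 CPM at day 5 and 5.10 CPM at day 7. The day 3 libraries differed from each other more than the lower of them did from uninjured replicate 2, and the log2 difference was 2.08 (SE 0.76, adjusted p = 0.128 by edgeR). Without day 3 replicate 2 both genes were called (Has1 2.83, adjusted p = 0.00108; Cd44 1.79, adjusted p = 0.00241, by edgeR), and Cd44 was also called without uninjured replicate 2 (2.15, adjusted p = 0.00156 by edgeR). Without day 3 replicate 1 the difference of Has1 was 0.96 (adjusted p = 0.665 by edgeR) and that of Cd44 0.91 (adjusted p = 0.290 by edgeR), and without uninjured replicate 1 that of Cd44 was 0.96 (adjusted p = 0.273 by edgeR).

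Cemip (chr7:83932857-84086502, minus strand), whose product is needed for hyaluronan depolymerization in fibroblasts, followed another course. Its stromal level was 65.7 and 10.0 CPM in the uninjured libraries, 14.0 and 58.1 CPM at day 3, 195 CPM at day 5 and 186 CPM at day 7. The uninjured and day 3 libraries overlapped (log2 difference 0.48, SE 0.86, adjusted p = 0.825 by edgeR), and the day 5 and day 7 libraries stood above all 4 of them. With 1 library on each of these days, the later level has no replicate and no test. Of the 11 Cemip UMIs in the stroma of uninjured replicate 1, 10 came from its 6 chondrocyte-like nuclei. That name held poorly there, with 2 of 6 chondrocyte markers detected (5 UMIs).

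**Figure D2:**
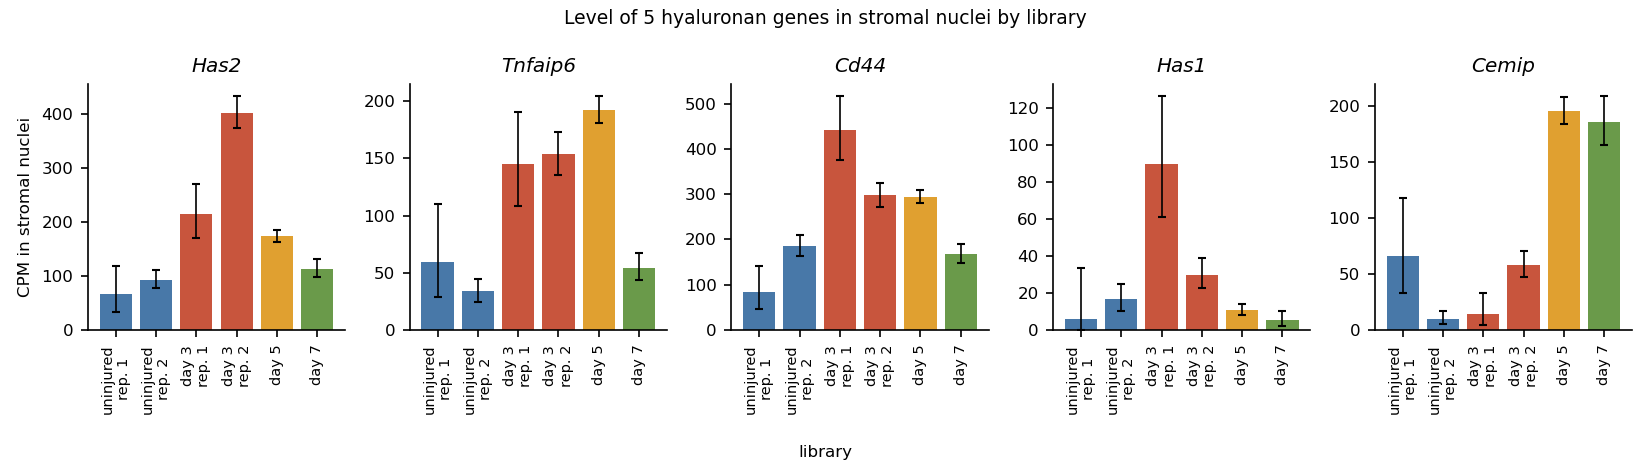
Level (CPM, y axis) of Has2, Tnfaip6, Cd44, Has1 and Cemip in the stromal nuclei of each of the 6 libraries; bars are summed levels and error bars exact Poisson 95% intervals, which cover counting error only. Has2 reaches 402 CPM in day 3 replicate 2, Tnfaip6 is highest at day 5 (192 CPM), and Cemip stands at 195 and 186 CPM at days 5 and 7.

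Promoter windows of RefSeq (GRCm38.p6) were at hand for 5 of the 8 genes, and the 4 of these that were tested in the stroma are shown so that the gene that rose, Tnfaip6, can be set beside Has1, Cemip and Cd44. Each line holds bases upstream of both the RefSeq and the GENCODE start, 5′ to 3′ on the strand of the gene, and capitals mark motif letters found on either strand. The motifs searched were the AP-1 site, written TGANTCA, the cyclic AMP response element or CRE, written TGACGTCA, the TATA box, taken as its core letters TATAAA, and the GC box, which binds SP1 and was searched as GGGCGG. No motif contains another.
Tnfaip6, chr2:52037863-52038008, plus strand: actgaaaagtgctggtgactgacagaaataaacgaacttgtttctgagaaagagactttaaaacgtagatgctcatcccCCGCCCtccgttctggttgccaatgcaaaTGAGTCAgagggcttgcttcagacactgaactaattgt
Has1, chr17:17855206-17855438, minus strand: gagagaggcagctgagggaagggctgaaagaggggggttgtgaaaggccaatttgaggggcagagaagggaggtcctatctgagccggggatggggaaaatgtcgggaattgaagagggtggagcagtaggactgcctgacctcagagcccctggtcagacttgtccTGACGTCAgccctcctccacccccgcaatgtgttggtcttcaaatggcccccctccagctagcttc
Cemip, chr7:84086506-84086755, minus strand: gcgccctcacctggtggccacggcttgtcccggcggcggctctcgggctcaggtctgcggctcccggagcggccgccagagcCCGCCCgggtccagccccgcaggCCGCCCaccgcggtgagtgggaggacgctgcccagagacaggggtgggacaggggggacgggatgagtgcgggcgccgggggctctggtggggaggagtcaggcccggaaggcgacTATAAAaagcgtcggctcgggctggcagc
Cd44, chr2:102901666-102901915, minus strand: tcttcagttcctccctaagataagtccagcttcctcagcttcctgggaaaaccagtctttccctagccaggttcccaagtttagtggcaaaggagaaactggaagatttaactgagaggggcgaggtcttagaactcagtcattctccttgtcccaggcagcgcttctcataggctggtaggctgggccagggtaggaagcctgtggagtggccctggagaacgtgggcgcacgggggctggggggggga
Tnfaip6 held the AP-1 letters and a GC box once each, Has1 the CRE letters, Cemip a TATA box and 2 GC boxes, and Cd44 none of these. Among 32851 promoter windows of 250 bases, 6.75% held the AP-1 letters, 1.55% the CRE letters, 12.4% the TATA box and 32.7% the GC box. The Tnfaip6 and Has1 stretches are shorter than that, and a match describes the letters of the window only.

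The mixture of populations within the stroma changed over the same days. Before injury, 2.94 and 6.81% of stromal nuclei were IIFC-like, and this share was 18.7 and 23.1% in the day 3 libraries, 43.1% in that of day 5 and 32.9% in that of day 7. Chondrocyte-like nuclei made up at most 5.88% up to day 3, then 15.3 and 32.8%. Markers of leukocytes in stromal nuclei moved as well, with those of macrophages and neutrophils higher at day 3 and those of lymphocytes lower. The 6 lymphocyte markers summed to 3973 and 5468 CPM without injury and to 2244 and 3852 CPM at day 3. The 6 macrophage markers summed to 59.7 and 87.2 CPM without injury and to 227 and 476 CPM at day 3, against 3822 to 6003 CPM in macrophage-like nuclei of libraries with at least 20 of them. The 6 neutrophil markers summed to 11.9 and 7.86 CPM without injury and to 19.6 and 143 CPM at day 3. All 6 macrophage markers were detected in the stroma of both day 3 libraries, against 2 and 5 of 6 without injury, where Adgre1 was at 0 in both, and of the neutrophil markers Retnlg was at 0 in each library but day 3 replicate 2. In macrophage-like nuclei of libraries with at least 20 of them, Has2 and Tnfaip6 were at most 11.2 CPM, whereas Cd44 was at 499 to 719 CPM, and the part of leukocyte RNA in the stromal Cd44 values was not tested.

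By population, Has2 at day 3 was highest in IIFC-like and next in fibroblast-like nuclei in both libraries. In IIFC-like nuclei no Has2 UMI was counted in the 25 nuclei of uninjured replicate 2, whereas the level was 264 and 734 CPM at day 3, 198 CPM at day 5 and 113 CPM at day 7. In fibroblast-like nuclei it was 89.996 and 78.1 CPM without injury, 220 and 424 CPM at day 3, 202 CPM at day 5 and 70.3 CPM at day 7. In SSPC-like nuclei it was 40.6 and 176 CPM without injury, 213 and 186 CPM at day 3, and 78.0 and 69.8 CPM at days 5 and 7. The uninjured and day 3 libraries were far apart in fibroblast-like nuclei, while in SSPC-like nuclei uninjured replicate 2 lay just below the day 3 libraries. Chondrocyte-like nuclei, the cartilage-forming cells of the callus, had 179 CPM of Has2 at day 5 and 149 CPM at day 7, and osteoblast-like nuclei had 6.83 to 74.9 CPM in the 4 libraries with at least 20 of them. In day 3 replicate 2, 35.9% of the 882 Has2 UMIs came from IIFC-like nuclei, which were 4.32% of its nuclei. At day 7, 44.0% of the 191 Has2 UMIs came from chondrocyte-like nuclei, which were 21.5% of the nuclei.

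Shares of nuclei were compared after thinning each nucleus to 500 UMIs, since depth differed between libraries. Has2 was then detected in 24.1% of IIFC-like nuclei of day 3 replicate 2 (14 of 58, exact 95% interval 13.9 to 37.2%), in 7.78% at day 5 (36 of 463, 5.50 to 10.6%) and in 5.02% at day 7 (12 of 239, 2.62 to 8.61%). Macrophage-like nuclei, used as the background that should lack Has2, gave 0.726% in day 3 replicate 2 (3 of 413, 0.150 to 2.11%). Neutrophil-like nuclei of that library gave more, 3.96% (18 of 454, 2.37 to 6.19%), and held 73 of its Has2 UMIs (92.5 CPM), with an interval that overlaps those of the IIFC-like shares at days 5 and 7. Before thinning the Has2 shares of IIFC-like and macrophage-like nuclei of day 3 replicate 2 were 56.9 and 5.81%, at median depths of 6541 and 6317 UMIs. In fibroblast-like nuclei the thinned Has2 share was 8.65% in day 3 replicate 2 (4.03 to 15.8%) and 6.62% in uninjured replicate 2 (3.07 to 12.2%), with intervals that overlap.

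Has1 UMIs lay mostly in fibroblast-like (83) and SSPC-like nuclei (58) of 202 in all. Its level in SSPC-like nuclei was 20.3 and 24.8 CPM without injury, 139 and 21.7 CPM at day 3, 74.4 CPM at day 5 and 23.3 CPM at day 7. The day 3 libraries disagreed there, and the value of day 3 replicate 1 rests on 15 UMIs in 31 nuclei. In fibroblast-like nuclei Has1 was at 0 and 13.5 CPM without injury, 69.2 and 49.7 CPM at day 3, and 19.1 and 6.70 CPM at days 5 and 7. The groups did not overlap there, and the log2 difference was 2.40 (SE 0.81, adjusted p = 0.107 by edgeR). Has3 (chr8:106870242-106884566, plus strand), the remaining synthase, had 28 UMIs in all retained nuclei. Of these, 14 were in blood endothelial-like nuclei, 11 in uninjured replicate 2 (10.5 CPM) and 3 in day 3 replicate 2 (6.35 CPM).

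Tnfaip6 was highest in fibroblast-like nuclei in day 3 replicate 1 and in IIFC-like nuclei in day 3 replicate 2 and at day 5. In fibroblast-like nuclei its level was 10.0 and 37.7 CPM without injury, 233 and 166 CPM at day 3, 133 CPM at day 5 and 87.1 CPM at day 7. In IIFC-like nuclei it was 46.2 CPM in uninjured replicate 2, 77.5 and 211 CPM at day 3, 260 CPM at day 5 and 62.8 CPM at day 7. In SSPC-like nuclei it was 183 and 29.8 CPM without injury, 92.4 and 118 CPM at day 3, 67.3 CPM at day 5 and 140 CPM at day 7. The SSPC-like groups overlapped, and the 183 CPM rest on 9 of the 10 Tnfaip6 UMIs of uninjured replicate 1. Chondrocyte-like nuclei had 210 CPM of Tnfaip6 at day 5 (counting interval 182 to 241 CPM) and 19.5 CPM at day 7 (9.76 to 35.0 CPM). These intervals do not meet, but each day is 1 library, and the difference between days has no test.

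Thinned shares of Tnfaip6 were 8.86% of IIFC-like nuclei (41 of 463, 6.43 to 11.8%) and 8.48% of chondrocyte-like nuclei (14 of 165, 4.72 to 13.8%) at day 5, and 1.26% of chondrocyte-like nuclei at day 7 (3 of 238, 0.261 to 3.64%). The Tnfaip6 background in macrophage-like nuclei at day 5 was 0.434% (2 of 461). Without thinning these Tnfaip6 shares were 38.1, 28.5, 3.36 and 1.95%, at median depths of 4619, 4921, 1594 and 1508 UMIs.

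**Figure D3:**
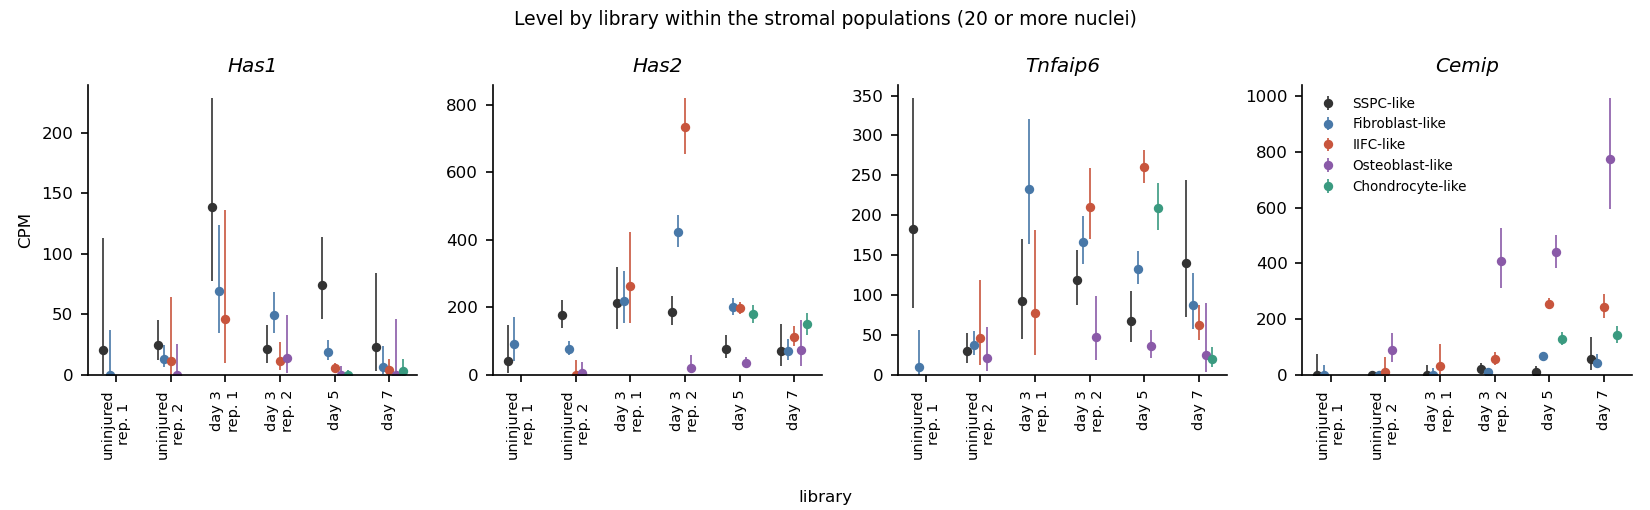
Level (CPM, y axis) of Has1, Has2, Tnfaip6 and Cemip by library (x axis) within each stromal population, for populations with at least 20 nuclei in the library; points are summed levels and bars exact Poisson 95% intervals for counting error only. Has2 stands highest in IIFC-like nuclei of day 3 replicate 2 (734 CPM), Tnfaip6 in IIFC-like nuclei at day 5 (260 CPM) and Cemip in osteoblast-like nuclei at day 7 (774 CPM).

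Cemip was highest in osteoblast-like nuclei in each library with at least 20 of them. Its level there was 88.8 CPM in uninjured replicate 2, 409 CPM in day 3 replicate 2, 440 CPM at day 5 and 774 CPM at day 7. The counting interval of the uninjured value ended at 152 CPM, below the intervals of the 3 injured libraries, but this covers counting error only, and with 1 library on each side the difference has no test. In IIFC-like nuclei Cemip was at 11.6 CPM in uninjured replicate 2, 31.0 and 55.6 CPM at day 3, 255 CPM at day 5 and 244 CPM at day 7. Tendon-like nuclei had 9.59 to 105 CPM up to day 3, then 268 and 167 CPM, and chondrocyte-like nuclei had 127 and 142 CPM at days 5 and 7. In SSPC-like and fibroblast-like nuclei no Cemip UMI was found in either uninjured library or in day 3 replicate 1, and the highest later level was 66.5 CPM. After thinning, Cemip was detected in 17.4% of osteoblast-like nuclei at day 5 (27 of 155, 11.8 to 24.3%) and in 2.80% in uninjured replicate 2 (3 of 107, 0.582 to 7.98%), with 0.651% of macrophage-like nuclei at day 5 as the background (3 of 461). Without thinning these Cemip shares were 38.1, 3.45 and 1.08%, and the median depths of the thinned nuclei were 2034, 752 and 1514 UMIs.

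Cd44 had its highest mean in osteoclast-like nuclei, at 1526 CPM at day 5 and 646 CPM at day 7 (27 and 21 nuclei). Macrophage-like nuclei had 607 CPM in uninjured replicate 2, 599 and 499 CPM at day 3, 719 CPM at day 5 and 679 CPM at day 7, so that the uninjured value lay within the range of the injured ones. Neutrophil-like nuclei of day 3 replicate 2 had 933 CPM. In that library macrophage-like nuclei held 48.8% of the Cd44 UMIs. Among macrophage-like clusters, with all libraries pooled, the one led by Mrc1 and Ms4a7 had 329 CPM, and those led by Arg1 and by Ccr2 had 778 and 814 CPM. At day 3 against uninjured, the log2 difference of Cd44 in macrophage-like nuclei was 0.51 (SE 0.88, adjusted p = 1.00 by edgeR), in a fit that tested no other of the 8 genes and called 0.692% of 4481 genes, 0.0669% higher and 0.625% lower. Without the 10 nuclei of uninjured replicate 1 this difference was -0.025 (adjusted p = 0.999 by edgeR).

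In blood endothelial-like nuclei, Cd44 rose. Its level was 5.26 and 19.1 CPM in the uninjured libraries, 127 and 112 CPM at day 3, 80.4 CPM at day 5 and 91.8 CPM at day 7. Each injured library stood above both uninjured ones. The log2 fold change at day 3 was 2.94 (SE 0.57, adjusted p = 0.0138 by edgeR), in a fit that called 5.09% of 6546 genes, 2.31% higher and 2.78% lower, and tested no other of the 8 genes. Without uninjured replicate 1 it was 2.47 (SE 0.45, adjusted p = 0.548 by edgeR), and edgeR then called 0 genes, with 705 at an unadjusted p under 0.05. The day 3 levels rest on 11 UMIs in 37 nuclei and 53 UMIs in 61 nuclei. Cd44 passed the filter on low counts only through these day 3 libraries, since both uninjured levels lay below its cut-off. With no such filter its log2 fold change was 2.84 (adjusted p = 0.000106 by edgeR).

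Macrophage and neutrophil markers were higher too in blood endothelial-like nuclei at day 3. The 6 lymphocyte markers went the other way, from 4649 and 7746 CPM without injury to 3309 and 2950 CPM. The 6 macrophage markers summed to 145 and 163 CPM without injury and to 336 and 366 CPM at day 3, and the 6 neutrophil markers to 2.63 and 1.91 CPM and to 46.3 and 91.0 CPM. Of the neutrophil markers 1 of 6 was detected there in each uninjured library and 2 and 5 of 6 at day 3, of the macrophage markers 3 and 6 of 6 without injury and 5 and 6 of 6 at day 3, and their part in the Cd44 values was not tested. At days 5 and 7 the macrophage markers were at 100 and 83.5 CPM, below both uninjured libraries. The neutrophil markers were at 6.70 and 8.35 CPM there, from 5 and 1 UMIs. These are too few to set against the 1 and 2 UMIs of the uninjured libraries. After thinning, Cd44 was detected in 9.84% of blood endothelial-like nuclei of day 3 replicate 2 (6 of 61, 3.70 to 20.2%) and in 0.442% in uninjured replicate 2 (1 of 226, 0.0112 to 2.44%). Without thinning these Cd44 shares were 42.6 and 7.52%, at median depths of 7033 and 3407 UMIs. Pericyte/SMC-like nuclei, chosen as the background for Cd44, gave 4.69% after thinning in uninjured replicate 2 (3 of 64) and held 71.9 CPM there and 381 CPM at day 5, so that they did not lack the gene.

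Has2 in blood endothelial-like nuclei did not pass the filter on low counts. Without the filter its log2 difference was 4.15 (SE 1.13, adjusted p = 0.00968 by edgeR), from 1 UMI in each uninjured library (2.63 and 0.957 CPM) to 2 and 19 UMIs at day 3 (23.1 and 40.2 CPM). The 19 UMIs came from 3 of 61 nuclei. The 6 IIFC markers summed to 145 and 606 CPM in blood endothelial-like nuclei without injury and to 416 and 929 CPM at day 3, and their part in the Has2 values was not tested.

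**Figure D4:**
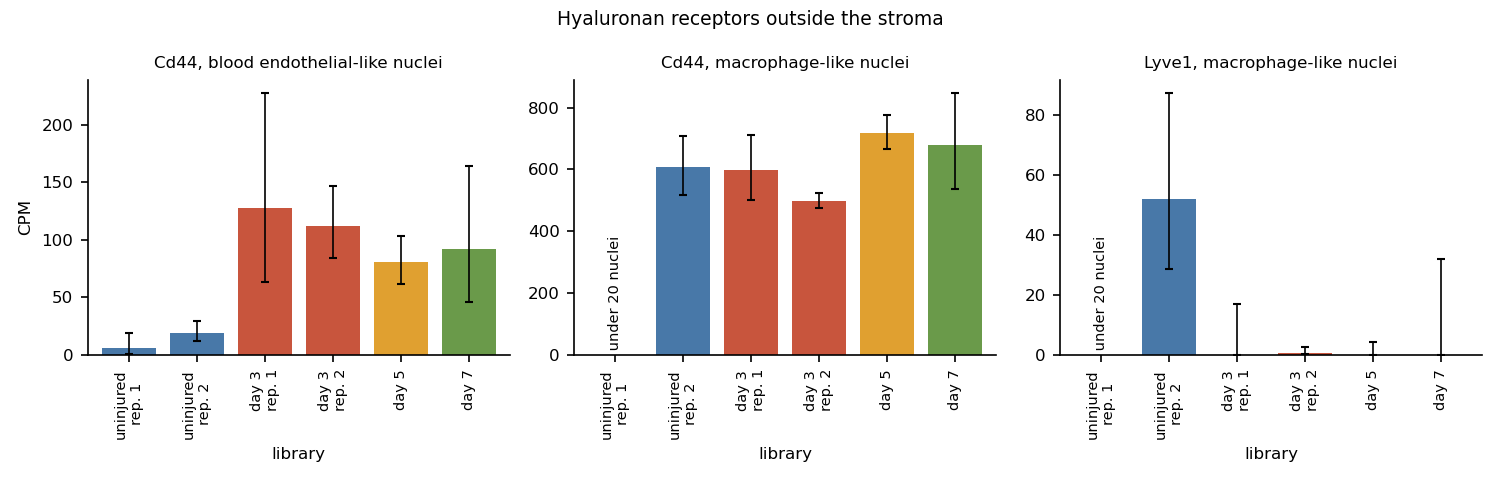
Level (CPM, y axis) of Cd44 in blood endothelial-like and macrophage-like nuclei and of Lyve1 in macrophage-like nuclei, by library (x axis); bars are summed levels with exact Poisson 95% intervals for counting error, and the library with fewer than 20 nuclei is marked and has no bar. Cd44 in blood endothelial-like nuclei stands at 5.26 and 19.1 CPM without injury and at 127 and 112 CPM at day 3, and Lyve1 in macrophage-like nuclei at 52.1 CPM in uninjured replicate 2 and at most 0.661 CPM after injury.

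Lyve1 (chr7:110850607-110863239, minus strand) had 66 of its 96 UMIs in lymphatic endothelial-like nuclei. Its level there was 24.9 and 227 CPM in the uninjured libraries and 184 CPM at day 5, the 3 libraries with at least 20 such nuclei, and 24 further UMIs came from 5 such nuclei of day 3 replicate 2. Macrophage-like nuclei held 16 further UMIs, of which 14 came from the 58 nuclei of uninjured replicate 2 (52.1 CPM) and 2 from the 413 nuclei of day 3 replicate 2 (0.661 CPM). The other injured libraries had no Lyve1 UMI in macrophage-like nuclei, which allows up to 13.7 CPM in day 3 replicate 1, 3.30 CPM at day 5 and 26.1 CPM at day 7. Lyve1 did not pass the filter in the macrophage fit, and without the filter its log2 difference was -5.80 (SE 1.33, adjusted p = 0.00777 by edgeR). That value rests on 1 uninjured library, since the 10 macrophage-like nuclei of the other held no Lyve1 UMI.

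Before thinning, 15.5% of macrophage-like nuclei of uninjured replicate 2 had a Lyve1 UMI (9 of 58, 7.35 to 27.4%), against 0.484% in day 3 replicate 2 (2 of 413, 0.0587 to 1.74%) and 2.59% of osteoblast-like nuclei of uninjured replicate 2, the background for Lyve1. After thinning these Lyve1 shares were 3.51% (2 of 57, 0.428 to 12.1%), 0 of 413 nuclei, which allows up to 0.726%, and 1.87%. At 500 UMIs the Lyve1 share in uninjured macrophage-like nuclei was thus not separable from its background. The median depths of the thinned nuclei were 3815, 6317 and 752 UMIs.

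Hyal2 (chr9:107567945-107572779, plus strand), which encodes a membrane-anchored hyaluronidase, had 63 of its 151 UMIs in blood endothelial-like nuclei. Its level there was 26.3 and 22.0 CPM without injury, 0 and 14.8 CPM at day 3, 28.1 CPM at day 5 and 16.7 CPM at day 7. No Hyal2 UMI among 86438 in day 3 replicate 1 allows up to 34.7 CPM, above the other 5 values, so that no change was detectable at this depth. In stromal nuclei Hyal2 was at most 4.61 CPM in any library.

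The wider pathway was described with 34 further genes, of which 20 were tested in the stroma, 3 called higher and 3 lower, with a median log2 fold change of 0.46. These calls are read against the same 3.62 and 5.25% of all genes. Ptx3, Itih5 and Hmmr, described below, were each at 0 CPM in a library of their lower group. They passed the filter on low counts only through the group where they were high, so that passing it adds no support. All 3 were also called by edgeR, in the same direction, without that filter. Of 15 matrix binders 5 were tested. Vcan, the gene of versican, rose from 293 and 315 CPM to 1242 and 791 CPM (log2 fold change 1.79, SE 0.41, adjusted p = 0.0197 by edgeR), and the call was lost in 3 of 15 alternatives, among them without day 3 replicate 1 (1.24, adjusted p = 0.0983 by edgeR). Ptx3, the gene of pentraxin 3, rose from 0 and 5.71 CPM to 64.4 and 114 CPM (4.19, SE 0.67, adjusted p = 0.00369 by edgeR). Itih5, of the inter-alpha-inhibitor heavy chain family, fell from 77.7 and 109 CPM to 0 and 8.46 CPM (-4.02, SE 0.67, adjusted p = 0.00457 by edgeR). These 3 genes were named because they were called, so that the lack of overlap between their uninjured and day 3 libraries adds no support. Hapln1 and Acan, which encode a link protein and aggrecan of cartilage, were not called at day 3 and had the highest levels among uncalled binders, at 756 and 647 CPM at day 5 and at 1309 and 944 CPM at day 7.

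All 7 precursor enzymes were tested. Gfpt2, which feeds the hexosamine pathway, fell from 364 and 286 CPM to 137 and 95.3 CPM (log2 fold change -1.46, SE 0.38, adjusted p = 0.0349 by edgeR), a call lost in 6 of 15 alternatives, among them fibroblast-like nuclei alone (-0.19, adjusted p = 0.900 by edgeR), looser limits on nuclei (-0.53, adjusted p = 0.559 by edgeR), all retained nuclei (-0.97, adjusted p = 0.275 by edgeR) and without day 3 replicate 2 (-1.06, adjusted p = 0.206 by edgeR). Uap1 had the highest level of the others, with 173 and 262 CPM without injury and 590 and 139 CPM at day 3, which overlapped. Of 6 receptors 4 were tested. Tlr4, best known for sensing lipopolysaccharide, fell from 114 and 181 CPM to 41.97 and 66.0 CPM (-1.48, SE 0.39, adjusted p = 0.0378 by edgeR). The Tlr4 call was lost in 5 of 15 alternatives, and the sign turned in 1 more, all retained nuclei (0.12). It was lost with DESeq2 (adjusted p = 0.100 by DESeq2), with looser limits on nuclei (-1.46, adjusted p = 0.105 by edgeR) and in fibroblast-like nuclei alone (-0.68, adjusted p = 0.606 by edgeR). It was also lost without uninjured replicate 2 (-1.08) and without day 3 replicate 1 (-1.35). Hmmr, whose product also acts at the mitotic spindle, had no UMI among 1567252 stromal UMIs of the uninjured libraries and 100 among 2130750 at day 3, at least 24.5-fold higher against a floor of 3 counts over the group (adjusted p = 0.00370 by edgeR). Of 6 degradation genes 4 were tested and 0 called by edgeR, with 1 at an unadjusted p under 0.05 (Cemip2, log2 difference 0.98, adjusted p = 0.134 by edgeR).

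**Figure D5:**
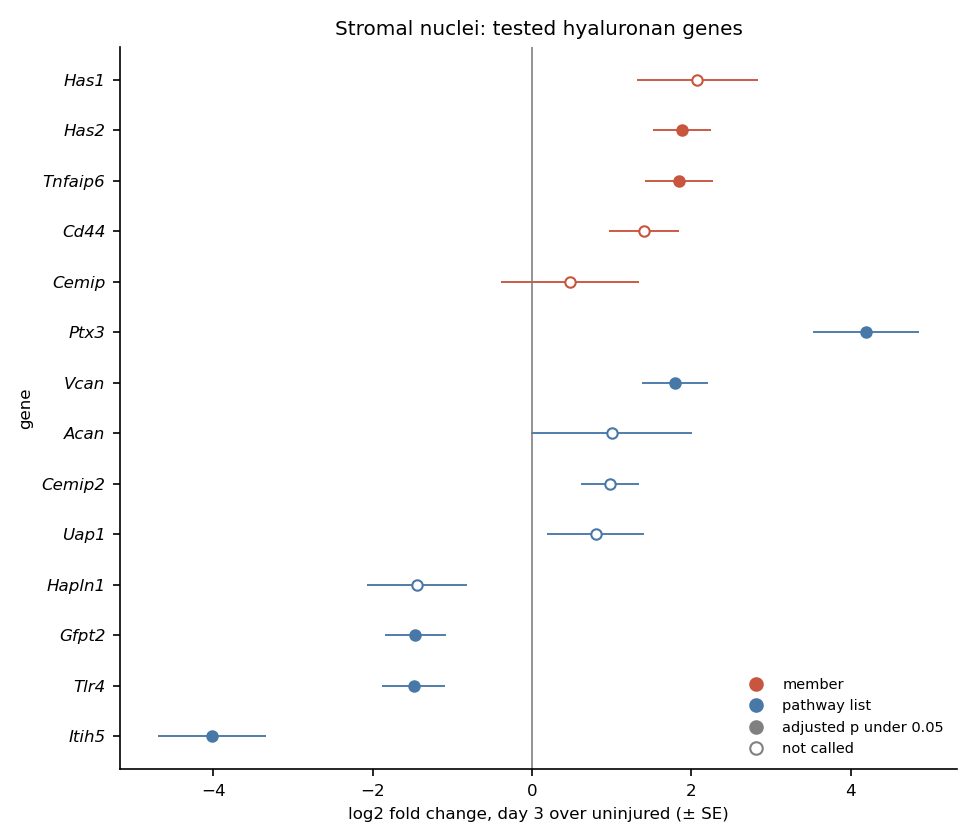
Log2 fold change at day 3 over uninjured in stromal nuclei (x axis, bars ± SE) for the tested members (red) and the pathway genes named in the text (blue); filled points had an adjusted p under 0.05, and Hmmr, with no UMI without injury, is not drawn. Has2 (1.88) and Tnfaip6 (1.85) are filled, as are Vcan (1.79) and Ptx3 (4.19) among higher genes and Itih5 (-4.02), Tlr4 (-1.48) and Gfpt2 (-1.46) among lower ones.

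The libraries also differed in how their counts were made, since the headers of both day 3 libraries and of uninjured replicate 2 name Cell Ranger 7.1.0 and those of the others 6.0.0. Within version 7.1.0, that is without uninjured replicate 1, the log2 fold change was 1.65 for Has2 and 2.09 for Tnfaip6, in a stromal fit with 1 uninjured library. For Cd44 in blood endothelial-like nuclei it was 2.47, also with 1 uninjured library, and Cd44 was no longer called there, as given above.

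The genes whose levels most resembled those of a member were sought over 55 population-by-library sums, which share libraries, depth and clustering, so that the correlations are a description. Nearest to Has2 were Bcat1 (Pearson r = 0.85), Dclk1 (0.80) and Bmper (0.78), and Tnfaip6 correlated with Has2 at 0.77. Nearest to Tnfaip6 were Lmx1a (0.78), Thbs3 (0.76) and Arsi (0.76). Cemip lay nearest to Col12a1 (0.79), Farp2 (0.77) and Col11a1 (0.75), and its correlation with Has2 was 0.27. Cd44 lay nearest to Runx1 (0.81), Frrs1 (0.80) and Fmn1 (0.79), Has1 to Bmper (0.71), Loxl1 (0.67) and Sfrp1 (0.66), and Hyal2 to Tes (0.71), Pkn3 (0.71) and Aqp1 (0.70). Bmper, Col12a1 and Col11a1 are among the markers used to name clusters. Has3 and Lyve1 had too few UMIs for this comparison.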

How the data were processed

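Nuclei were sorted and profiled with the 10x 3′ v3.1 chemistry. The authors mapped reads to mm10 with introns and exons and deposited raw UMI counts per gene and barcode, and headers name Cell Ranger 6.0.0 or 7.1.0. Barcodes with 200 to 5000 genes, under 2% mitochondrial and 1.5% ribosomal UMIs were kept (8073), myogenic nuclei were removed, and libraries were integrated and clustered at resolution 1.3 (Python 3.11.15, scanpy 1.11.5; R 4.3.3, Seurat 5.3.0) with the 8 genes and 34 pathway genes left out. Clusters were named from fixed markers, and 252 nuclei stayed unnamed. Scrublet's automatic threshold marked 19 nuclei and was taken as failed, so doublets were kept, and removing the 6% with the highest score was an alternative chosen after seeing the data.

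Summed UMI counts of 2 day 3 and 2 uninjured libraries were tested with edgeR 4.0.16 (quasi-likelihood, TMM, filterByExpr, Benjamini-Hochberg adjustment over all genes tested), and DESeq2 1.42.0 was an alternative. The SE of an edgeR log2 fold change was derived as its absolute value divided by the square root of the quasi-likelihood F statistic. Scripts were tested on simulated data. At a simulated log2 fold change of 2, edgeR recovered 55.6% of the changed genes for the stromal comparison. The share was 10.3% for macrophage-like and 69% for blood endothelial-like nuclei. At a log2 fold change of 3 it was still 50% for macrophage-like nuclei, so that a lack of calls there carries little weight. Levels carry exact Poisson and shares exact Clopper-Pearson 95% intervals, which, like the floor of 3 counts, cover counting error only. All 8 members are named. Pathway genes are named if called in the stroma or highest among those not called, and 1 of them is not reported here. Likeness used Pearson correlation of log2(CPM + 10). The members, lists and markers were chosen with earlier results of these data known.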

Additional observations from a re-analysis of the deposited data

Results flagged for a closer look

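Several of the 8 genes were found in barcodes that the comparisons left out, above the highest upper 95% limit of such barcodes among uninjured libraries with at least 100 of them. For barcodes outside the limits on nuclei this is uninjured replicate 2 alone, since uninjured replicate 1 had 11, whose upper limits of 334 CPM for Has2, Cemip and Tnfaip6 and 655 CPM for Cd44 lie above the values given here. In barcodes outside the limits on genes, mitochondrial and ribosomal UMIs, Has2 was at 178 CPM in day 3 replicate 2 and 120 CPM at day 5, above 19.7 CPM in uninjured replicate 2. Tnfaip6 was at 99.6 CPM in day 3 replicate 2 and 177 CPM at day 5 there, above 42.7 CPM, and Cemip at 31.0 and 139 CPM in the same libraries, above 13.9 CPM. Cd44 was at 418 CPM in day 3 replicate 2, above 313 CPM.

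In the myogenic nuclei left out of all comparisons, Cd44 was at 149 and 134 CPM in the day 3 libraries, 123 CPM at day 5 and 44.9 CPM at day 7, each above the uninjured limit of 28.3 CPM. Cemip was at 11.8 and 24.04 CPM at day 3, 27.7 CPM at day 5 and 25.2 CPM at day 7 in myogenic nuclei, and Has2 at 16.5 CPM in day 3 replicate 2, above 6.49 CPM for both genes. The source of these UMIs was not tested.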

How the results depend on the processing

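With 2 libraries per group and 1 each at days 5 and 7, and as few as 37 nuclei behind a tested endothelial library, changes in low genes could not be resolved. Has2 kept its direction and call in 14 of 15 stromal alternatives and lost the call in SSPC-like nuclei alone. Tnfaip6 kept them in 12, losing the call at resolution 0.8 (1.59, adjusted p = 0.0511 by edgeR), without uninjured replicate 2 and in SSPC-like nuclei alone. Of the 8 genes, 4 were called in the stroma with no filter on low counts, 1 at resolution 0.8, 0 by edgeR in SSPC-like nuclei alone (1 at an unadjusted p under 0.05) and 2 to 4 when 1 library was left out. Over all genes the 850 calls of 9589 genes tested became 504 of 5255 in SSPC-like and 545 of 6988 in fibroblast-like nuclei alone. They became 756 of 9299 at resolution 0.8 and 1209 of 20155 without the filter. Leaving out the filter raised the genes tested from 4481 to 17930 in macrophage-like and from 6546 to 17807 in blood endothelial-like nuclei. Counts of calls from fits that tested different numbers of genes are thus not directly comparable. In macrophage-like nuclei the 31 calls became 9 with DESeq2, 56 with upper-quartile factors, 83 without the filter (1 of the 8 genes, Lyve1), 10 without integration, 61 with looser limits, 19 without the nuclei scored as doublets and 0 to 151 with 1 library left out. Without day 3 replicate 2, where edgeR called 0, 180 genes had an unadjusted p under 0.05. The fit without uninjured replicate 2 was not run, since 10 nuclei would have stood for the group. The median of all genes there was 0.13 and moved to 0.30 with DESeq2 and 0.0046 with upper-quartile factors, where that of Cd44 was 0.86 and 0.25. In blood endothelial-like nuclei the 333 calls became 216 with DESeq2, 712 without the filter (2 of the 8 genes) and 0 to 574 with 1 library left out (0 to 1 of the 8 genes). The Cemip difference ranged from -0.90 to 1.83 with 1 library left out, turning to -0.82 without uninjured replicate 2 and to -0.90 without day 3 replicate 2. That of Cd44 in macrophage-like nuclei ranged from -0.025 (without uninjured replicate 1) to 0.97, and that of Tlr4 to 0.12 over all retained nuclei. The cause was not tested. The mean Has2 share in IIFC-like nuclei, 9.39% at 500 UMIs, was 26.8% without thinning. The population with the highest mean was the same for 6 to 8 of the 8 genes under each alternative, and changed for Has2 without day 3 replicate 2, for Tnfaip6 there and at resolution 0.8, for Has1 without integration and with looser limits, for Cd44 without integration and for Has3 without uninjured replicate 2. No paired analysis was run, since neither the labels nor the methods pair an uninjured library with a day 3 library. The labels carry no replicate numbers, and those used here follow the order of the samples.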
